A study of Homo sapiens with 3 samples.

Results

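Aminoacyl-tRNA synthetases were examined in Hep-G2 cells carrying hairpins against FTO. The genes were taken by symbol, 36 of the 21572 rows of the deposited expression table: 20 for cytosolic enzymes or their subunits, 14 for mitochondrial enzymes and 2 for the scaffold proteins AIMP1 and AIMP2. All 36 were found, and all 36 had a mean of at least 1 FPKM (fragments counted on a gene, scaled by transcript length and by the size of the library), the level at which 11069 genes were compared. The table uses older gene symbols, so that AARS, for example, is the gene now called AARS1.

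RNA was sequenced from 3 lines of Hep-G2, an established human hepatoma cell line, all at passage 21. The sh#7 line carried the shRNA TRCN0000246247 against FTO, the sh#2 line carried the shRNA TRCN0000255402 against FTO, and the control line carried the scramble shRNA SHC002. The series describes the knockdown as stronger in sh#7 than in sh#2, and the labels do not say whether a line is a pool or a clone. Each line gave 1 library, so no difference below was tested, and an effect of FTO cannot be told apart from an effect of a line. Both FTO lines were set against the same control library.

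FTO, which encodes a demethylase of N6-methyladenosine in RNA, was at 2.55 FPKM with sh#7 and 5.29 FPKM with sh#2, against 9.02 FPKM in control. Estimated depth was 41751930 fragments for sh#7, 43208124 for sh#2 and 41943795 for control. Only single-fragment estimates within a fixed range were kept, so these depths could not fall outside it. Their closeness was partly set in advance and does not show that the libraries were equally deep. All 8 hepatocyte markers were listed above 1 FPKM in every library, with summed levels of 6222 FPKM with sh#7 and 12559 FPKM with sh#2, against 14444 FPKM in control. The lowest hepatocyte marker was at 3.43 FPKM with sh#7 and 26.6 FPKM with sh#2, against 61.1 FPKM in control. It need not be the same gene in each library. These sums and lowest levels differ between the lines, and their part in the results below was not tested. All 6 fibroblast and all 4 endothelial markers were below 1 FPKM in every library, with COL1A2, COL3A1, THY1, DCN and KDR listed at 0. The 5 blood and immune markers summed to 24.7 FPKM with sh#7 and 32.4 FPKM with sh#2, against 41.6 FPKM in control, with the leukocyte marker PTPRC and the T cell marker CD3E listed at 0. Nearly all of that sum was CD68, a lysosomal protein, at 23.3 FPKM with sh#7 and 30.8 FPKM with sh#2, against 39.3 FPKM in control. In these bulk samples, fewer cells of a type and less RNA per cell cannot be told apart.

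Aminoacyl-tRNA synthetases join each amino acid to its tRNA and so supply the ribosome with its substrates. Human cells use separate sets of enzymes for cytosolic and for mitochondrial translation, both encoded in the nucleus, and the mitochondrial genes mostly carry the suffix 2. GARS and KARS are exceptions, since each gives enzymes for both compartments. Several cytosolic enzymes sit with AIMP1 and AIMP2 in a large multi-synthetase complex. Many cytosolic synthetase genes are known targets of ATF4, the transcription factor of the amino acid response, which binds with C/EBP partners to composite elements such as TGATGCAA. The leucyl enzyme LARS has been described as a leucine sensor upstream of mTORC1, a kinase complex that controls growth.

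The composite element was searched in RefSeq promoter windows (build GRCh38.p14), each with 250 bases before and 50 after an annotated start, on both strands. Windows were found for 31 of the 36 genes, with none for DARS, LARS, VARS, YARS and AARS2. TGATGCAA or its reverse complement TTGCATCA stood in 6 of the 16 cytosolic genes with a window, which were AARS, CARS, IARS, MARS, NARS and TARS. It stood in 0 of 13 mitochondrial genes and 0 of 2 scaffold genes, and in 1.08% of the 27305 genes with a window. The 5 of these cytosolic genes with the largest differences in sh#7 are shown, 30 bases each, 5′ to 3′ on the gene's own strand, with the element in capitals.
AARS: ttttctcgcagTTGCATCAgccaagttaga
IARS: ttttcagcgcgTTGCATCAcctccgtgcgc
TARS: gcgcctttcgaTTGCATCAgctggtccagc
NARS: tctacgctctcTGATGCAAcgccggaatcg
MARS: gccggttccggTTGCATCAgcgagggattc
The AARS stretch lies at chr16:70289675-70289704 on the minus strand, with the element at positions -187 to -180 from the start. The other elements lie next to their starts. That of IARS is at positions -13 to -6, in a stretch at chr9:92293692-92293721 on the minus strand. The MARS element spans the start, at chr12:57488053-57488082 on the plus strand. Those of TARS and NARS begin at bases 3 and 15 of the transcript, in stretches at chr5:33440956-33440985 on the plus strand and chr18:57621804-57621833 on the minus strand. A match is a sequence of letters and does not show that ATF4 binds there.

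Cytosolic synthetases were expressed well above the mitochondrial enzymes in every library. Their median level was 61.0 FPKM with sh#7 and 64.4 FPKM with sh#2, against 49.2 FPKM in control. The mitochondrial median was 14.96 FPKM with sh#7 and 15.3 FPKM with sh#2, against 13.2 FPKM in control, close to the median of all compared genes, which was 12.5, 12.0 and 11.3 FPKM in sh#7, sh#2 and control. The cytosolic levels summed to 1279 FPKM with sh#7 and 1357 FPKM with sh#2, against 1188 FPKM in control. The mitochondrial levels summed to 266 FPKM with sh#7 and 310.4 FPKM with sh#2, against 275 FPKM in control. Scaled by median of ratios, the cytosolic sum was instead lower in sh#7, at 1212 FPKM, than in control, at 1271 FPKM. The ratio of these sums, which does not depend on the scaling of a library, was 4.82 in sh#7, 4.37 in sh#2 and 4.32 in control.

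The order of the levels differed at the top. AARS, the alanyl enzyme, was the highest member in sh#7, while QARS, the glutaminyl enzyme, was the highest in sh#2 and in control. The lowest cytosolic enzyme in all 3 libraries was CARS, for cysteine, at 15.9 FPKM with sh#7 and 18.5 FPKM with sh#2, against 14.5 FPKM in control. Among mitochondrial enzymes, IARS2 for isoleucine was highest in every library, at 66.5 FPKM with sh#7 and 83.9 FPKM with sh#2, against 75.6 FPKM in control. PARS2 for proline was lowest, at 3.17 FPKM with sh#7 and 2.99 FPKM with sh#2, against 3.20 FPKM in control, and these levels did not differ beyond counting error.

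**Figure D1:**
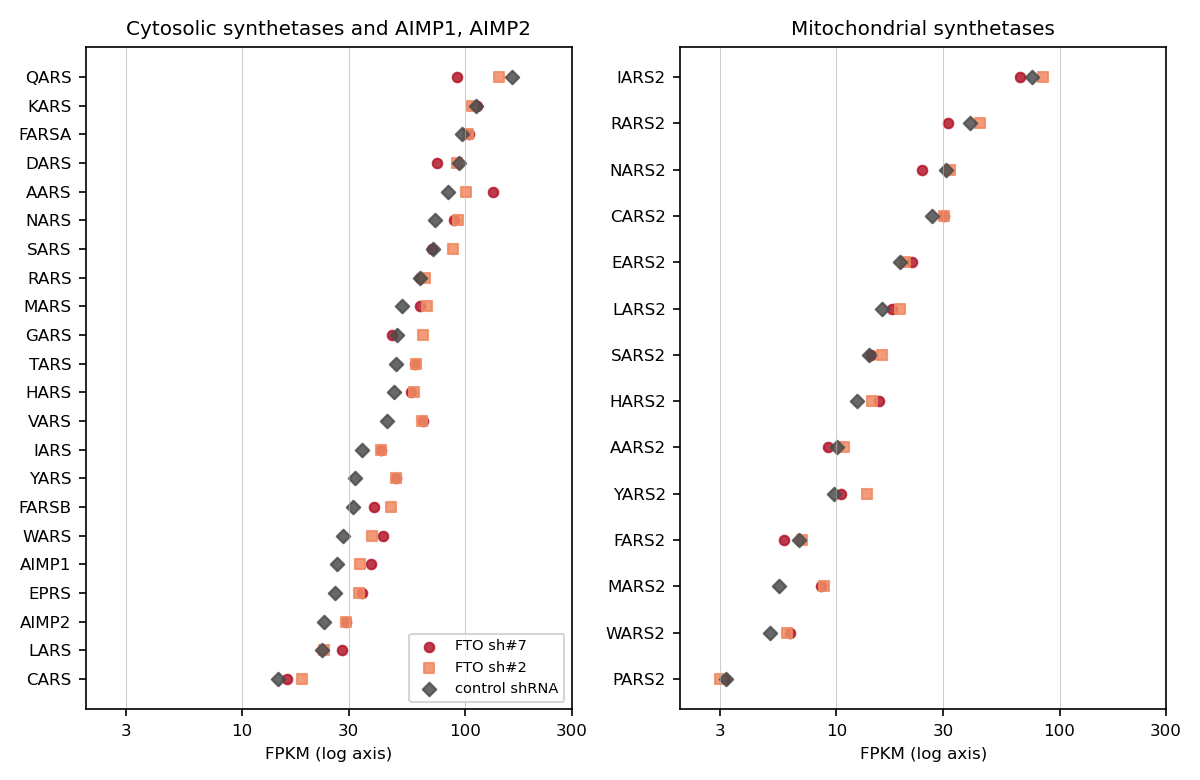
Level of each of the 36 genes in FPKM on a log axis, with 1 point per library (sh#7 circles, sh#2 squares, control diamonds) and genes ordered by their control level. On the deposited scale most cytosolic genes have the control to the left of both FTO lines; QARS, at 91.5 FPKM in sh#7, 142 FPKM in sh#2 and 162 FPKM in control, runs the other way.

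In sh#7, most synthetases were within 1.5-fold of control, and AARS and QARS stood at the ends of the range. Differences are log2(FPKM + 1) of the first line minus that of the second. On this scale, 2 of 36 members, AARS and YARS, were at least 1.5-fold higher, where 9.61% of all compared genes were that much higher. With 0.1 in place of 1 added to the FPKM, WARS and MARS2 passed as well, giving 4 members, where 13.4% of all genes passed. At least 1.5-fold lower was 1 member, QARS, where 6.18% of all genes were that much lower. No member was 2-fold higher or lower, where 2.35% of all genes were 2-fold higher and 2.48% were 2-fold lower. The shares of members are below those of all genes. With median-of-ratios or upper-quartile scaling, 0 members were 1.5-fold higher in sh#7 and 0 in sh#2, so the calls of AARS and YARS rest on the deposited scaling. The shares of all genes that much higher were then 5.24% and 6.22% for sh#7 and 1.53% and 1.72% for sh#2. The median of the cytosolic enzymes was 0.26, that of the mitochondrial enzymes was 0.06, and that of all compared genes was 0.16.

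In sh#2, more of the cytosolic enzymes lay in the upper quartile of all genes than in sh#7, where that quartile begins higher. On the log2(FPKM + 1) scale YARS was at least 1.5-fold higher, where 2.67% of all genes were, and with 0.1 added MARS2 passed as well, giving 2 members, where 4.58% of all genes passed. No member was 1.5-fold lower, where 2.72% of all genes were. At 2-fold there was no member, against 0.506% of all genes higher and 0.723% lower. By position among all compared genes, 14 of 20 cytosolic enzymes lay in the upper quartile of differences, which holds 25.0% of all genes, and 1 lay in the lower quartile. In sh#7 the same counts were 5 and 2 of 20, against 25.0% of all genes in each quartile. The upper quartile begins at 0.25 in sh#2 and at 0.37 in sh#7, so equal differences can count in sh#2 alone. IARS, at 0.27 with sh#2 and 0.28 with sh#7, is such a gene. The cytosolic median in sh#2 was 0.29, the mitochondrial median was 0.17 and the median of all genes was 0.10. Of the 14 mitochondrial enzymes, 3 lay in the upper and 1 in the lower quartile in sh#2, and 1 and 5 did so in sh#7.

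Because the median of all genes was itself above 0, directions depend on the scaling of the libraries. With the all-gene median subtracted, the cytosolic median was 0.11 with sh#7 and 0.19 with sh#2. The mitochondrial median was -0.10 with sh#7 and 0.06 with sh#2. With median-of-ratios scaling, 12 of 20 cytosolic enzymes were above control in sh#7 and 14 of 20 in sh#2, where the deposited FPKM gave 15 and 17. Of all compared genes, 67.2% were above control in each line as deposited, and 50.4% in sh#7 and 49.9% in sh#2 after that scaling. The same scaling put 4 of 14 mitochondrial enzymes above control in sh#7 and 9 of 14 in sh#2, where the deposited FPKM gave 8 and 13. The cytosolic minus the mitochondrial median hardly depends on scaling, and was 0.21 with sh#7 and 0.13 with sh#2. Taken over means in place of medians, it was 0.15 with sh#7 and 0.076 with sh#2.

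**Figure D2:**
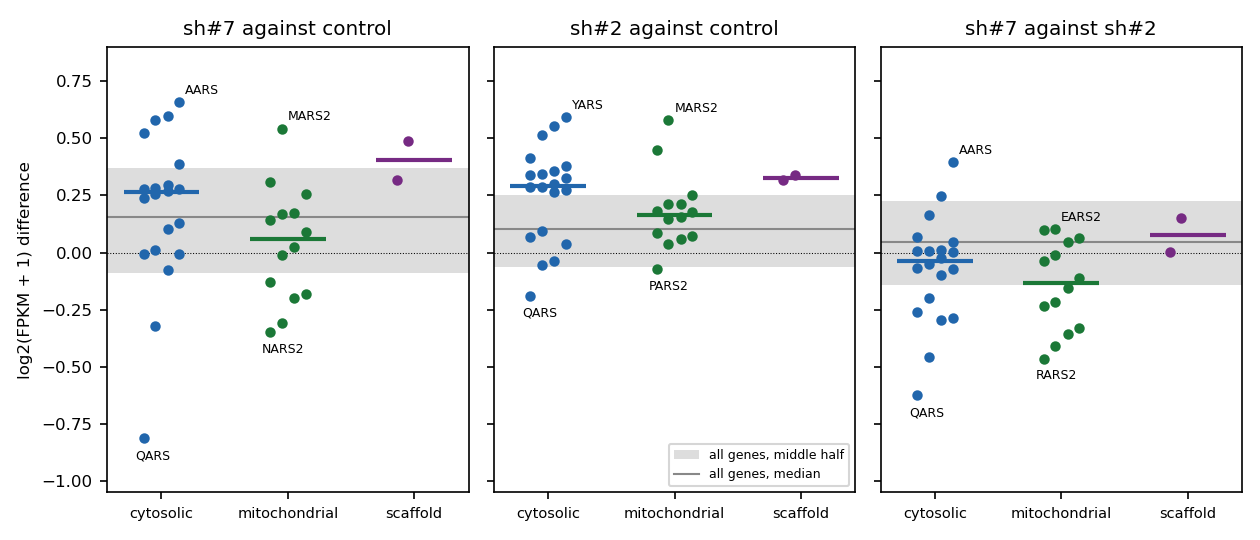
Difference in log2(FPKM + 1) for each gene (points) with the median of each group (coloured bars), the median of all 11069 compared genes (grey line) and their range between quartiles (grey band). The cytosolic median lies above the band in sh#2 against control, at 0.29, and inside it in sh#7 against control, at 0.26. The band ends at 0.25 in sh#2 and at 0.37 in sh#7.

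AARS showed the largest positive difference of any member in sh#7. It was at 132 FPKM with sh#7 and 100.4 FPKM with sh#2, against 83.5 FPKM in control. The sh#7 level was 159% of control (95% interval 155 to 162) and the sh#2 level was 120.2% (117 to 123), where the intervals rest on estimated fragment numbers, are approximate and cover counting error only. With the all-gene median subtracted, its log2 difference was 0.50 with sh#7 and 0.16 with sh#2. AARS made up 10.4% of the summed cytosolic levels in sh#7 and 7.40% in sh#2, against 7.03% in control.

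YARS, for tyrosine, WARS, for tryptophan, and VARS, for valine, were also higher in both lines. YARS was at 48.9 FPKM with sh#7 and 48.7 FPKM with sh#2, against 32.0 FPKM in control, or 153% (147 to 159) and 152% (147 to 158) of control. The 2 FTO lines had nearly the same YARS level, and the sh#7 level was 100.4% of that in sh#2 (97.0 to 104). WARS was at 42.8 FPKM with sh#7 and 38.1 FPKM with sh#2, against 28.3 FPKM in control. VARS was at 64.4 FPKM with sh#7 and 64.0 FPKM with sh#2, against 44.5 FPKM in control. The log2 differences of WARS were 0.58 and 0.41 and those of VARS were 0.52 and 0.51, in sh#7 and sh#2.

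QARS ran the other way. It was at 91.5 FPKM with sh#7 and 142 FPKM with sh#2, against 162 FPKM in control. The sh#7 level was 56.6% of control (55.3 to 58.0), the sh#2 level was 87.7% of control (85.9 to 89.5), and the sh#7 level was 64.6% of that in sh#2 (63.1 to 66.2). The order sh#7, sh#2, control from low to high is also that of FTO in these libraries. DARS, the elongation factor genes EEF1A1 and EEF2 and the summed hepatocyte markers had the same order. A link of QARS to FTO was not tested. QARS made up 7.15% of the summed cytosolic levels in sh#7 and 10.4% in sh#2, against 13.6% in control.

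Members of the multi-synthetase complex lay on both sides of the control. QARS and EPRS, the fused enzyme for glutamate and proline, belong to it, yet the ratio of QARS to EPRS was 2.65 with sh#7 and 4.24 with sh#2, against 6.18 in control. EPRS was at 34.5 FPKM with sh#7 and 33.4 FPKM with sh#2, against 26.1 FPKM in control. DARS, for aspartate, was at 74.8 FPKM with sh#7 and 91.3 FPKM with sh#2, against 93.7 FPKM in control, with the sh#7 level at 79.8% (77.4 to 82.3) of control. On the deposited scale KARS, for lysine, and RARS, for arginine, were within 5% of control in both lines. KARS was at 100.9% (98.1 to 104) in sh#7 and 96.2% (93.5 to 99.0) in sh#2, RARS at 99.7% (96.1 to 103) and 104.9% (101.2 to 109). With median-of-ratios scaling the log2 differences were -0.16 with sh#7 and -0.17 with sh#2 for KARS, and -0.18 and -0.05 for RARS.

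Among the other complex members, LARS was at 27.9 FPKM with sh#7 and 23.3 FPKM with sh#2, against 22.7 FPKM in control. On the deposited scale only the sh#7 level of LARS was beyond counting error. IARS, for isoleucine, was at 42.0 FPKM with sh#7 and 41.9 FPKM with sh#2, against 34.5 FPKM in control. MARS, for methionine, was at 62.6 FPKM with sh#7 and 67.1 FPKM with sh#2, against 52.2 FPKM in control. The scaffold AIMP1, also known as the precursor of the cytokine EMAP II, was at 37.7 FPKM with sh#7 and 33.8 FPKM with sh#2, against 26.5 FPKM in control. AIMP2, the core scaffold, was at 29.3 FPKM with sh#7 and 29.2 FPKM with sh#2, against 23.3 FPKM in control. Over the 10 complex members listed, the median difference was 0.27 with sh#7 and 0.17 with sh#2, with a range of -0.81 to 0.49 in sh#7. That list leaves out EEF1E1, also a part of the complex, which differed by 0.07 with sh#7 and 0.43 with sh#2. Counting EEF1E1 would raise the sh#2 median.

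Of the 12 cytosolic enzymes outside the complex, 11 were in the upper quartile of all genes in sh#2 and 4 in sh#7, against 25.0% of all genes. Their median difference was 0.27 with sh#7 and 0.33 with sh#2. The upper quartile begins at 0.37 in sh#7 and at 0.25 in sh#2. The phenylalanyl enzyme is built from the subunits FARSA and FARSB, whose differences from control were unequal. FARSB was at 38.9 FPKM with sh#7 and 46.7 FPKM with sh#2, against 31.5 FPKM in control. FARSA was at 103.9 FPKM with sh#7 and 103.2 FPKM with sh#2, against 96.7 FPKM in control. The ratio of FARSB to FARSA was 0.374 with sh#7 and 0.452 with sh#2, against 0.326 in control.

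GARS, for glycine, and SARS, for serine, were higher in sh#2 alone. With median-of-ratios scaling both lay on opposite sides of control, at log2 differences of -0.25 with sh#7 and 0.26 with sh#2 for GARS. Those of SARS were -0.18 and 0.17. GARS was at 46.9 FPKM with sh#7 and 64.8 FPKM with sh#2, against 49.5 FPKM in control, or 94.6% (91.1 to 98.3) and 131% (126 to 135) of control. SARS was at 71.2 FPKM with sh#7 and 87.6 FPKM with sh#2, against 71.6 FPKM in control, or 99.5% (95.8 to 103) and 122% (118 to 127) of control. CARS was at 110.0% (103 to 118) of control in sh#7 and 127% (119 to 136) in sh#2. NARS, TARS and HARS, for asparagine, threonine and histidine, were higher by similar amounts, by 0.27, 0.28 and 0.24 on the log2 scale with sh#7 and by 0.34, 0.30 and 0.29 with sh#2. In the direct comparison GARS was at 72.3% (69.8 to 75.0) and SARS at 81.3% (78.5 to 84.2) of the sh#2 level in sh#7.

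The 12 genes listed as known ATF4 targets were all above control in sh#2, and 11 of them lay in the upper quartile of all genes, LARS being the exception, against 25.0% of all genes. In sh#7, 10 of 12 were above control and 4 were in the upper quartile, which begins at 0.37 there and at 0.25 in sh#2. Of all genes, 67.2% were above control in each line. Their median difference was 0.28 with sh#7 and 0.33 with sh#2. The 8 cytosolic members outside that list had medians of 0.06 with sh#7 and 0.08 with sh#2, with 1 and 3 in the upper quartile. Of those 8, DARS, KARS, QARS and RARS belong to the multi-synthetase complex. The rest, FARSA, FARSB, HARS and VARS, were at 0.10, 0.30, 0.24 and 0.52 with sh#7. With sh#2 they were at 0.09, 0.55, 0.29 and 0.51. The list thus overlaps with place in the complex, and the part of each was not tested. The 6 genes with TGATGCAA in the promoter window, all on the ATF4 list, ranged from 0.13 to 0.66 with sh#7 and from 0.26 to 0.36 with sh#2. The 10 cytosolic genes with a window that lacks it had medians of 0.06 with sh#7 and 0.29 with sh#2, and ranged from -0.81 to 0.58 and from -0.19 to 0.55. Genes without the element therefore included some of the highest values in sh#2, such as FARSB at 0.55.

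Mitochondrial enzymes were spread around the control in sh#7. Below control beyond counting error were NARS2, for asparagine, RARS2, for arginine, IARS2, FARS2, for phenylalanine, and AARS2, for alanine. NARS2 was at 24.1 FPKM with sh#7 and 32.4 FPKM with sh#2, against 31.0 FPKM in control, and the sh#7 level was 77.8% of control (73.8 to 81.9). RARS2 was at 31.8 FPKM with sh#7 and 44.2 FPKM with sh#2, against 39.6 FPKM in control. Its sh#7 level was 80.2% (76.0 to 84.6) of control and its sh#2 level was 112% (106 to 117) of control. IARS2 likewise lay below control in sh#7, at 88.0% (85.7 to 90.4), and above it in sh#2, at 111% (108 to 114). With median-of-ratios scaling the sh#2 levels were within counting error of control, RARS2 at 103% (97.8 to 108) and IARS2 at 102% (99.7 to 105). AARS2 was at 9.13 FPKM with sh#7 and 10.8 FPKM with sh#2, against 10.1 FPKM in control, and FARS2 at 5.80 FPKM with sh#7 and 7.00 FPKM with sh#2, against 6.80 FPKM in control.

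MARS2, for methionine, was the mitochondrial enzyme furthest above control. It was at 8.53 FPKM with sh#7 and 8.78 FPKM with sh#2, against 5.55 FPKM in control, or 154% (139.9 to 169.6) and 158% (144 to 174) of control. On the log2(FPKM + 1) scale, which understates low genes, the differences were 0.54 and 0.58. YARS2, for tyrosine, was higher in sh#2 alone, at 10.5 FPKM with sh#7 and 13.7 FPKM with sh#2, against 9.77 FPKM in control. The sh#2 level of YARS2 was 140.1% of control (128 to 153), and its sh#7 level was 107% (97.7 to 118).

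The other mitochondrial enzymes were within 1.5-fold of control in both lines. HARS2 was at 15.6 FPKM with sh#7 and 14.5 FPKM with sh#2, against 12.4 FPKM in control. The promoter windows of HARS2 and HARS, which face in opposite directions on chromosome 5, shared 184 bases. HARS was at 57.0 FPKM with sh#7 and 59.0 FPKM with sh#2, against 48.1 FPKM in control. Both genes of this pair were higher in both lines, HARS2 by 0.31 with sh#7 and 0.21 with sh#2 on the log2 scale. CARS2, LARS2, SARS2 and WARS2 differed from control by 0.17, 0.14, 0.02 and 0.25 with sh#7 and by 0.18, 0.25, 0.18 and 0.21 with sh#2.

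Glutamine has no mitochondrial synthetase of its own in human cells. EARS2 charges the mitochondrial glutamine tRNA with glutamate, and an amidotransferase made of QRSL1, GATC and the product of PET112 converts it. EARS2 was at 21.9 FPKM with sh#7 and 20.4 FPKM with sh#2, against 19.3 FPKM in control. PET112 was at 16.5 FPKM with sh#7 and 24.2 FPKM with sh#2, against 22.2 FPKM in control. GATC was at 7.66 FPKM with sh#7 and 12.9 FPKM with sh#2, against 9.25 FPKM in control. QRSL1, named for its place in this enzyme after its values were seen, was at 5.71 FPKM with sh#7 and 7.13 FPKM with sh#2, against 5.59 FPKM in control. The 3 amidotransferase genes were thus lower in sh#7 than in sh#2, with log2 differences of sh#7 against sh#2 of -0.52 for PET112, -0.68 for GATC and -0.28 for QRSL1.

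For 11 amino acids the table holds 1 cytosolic and 1 mitochondrial gene of the same name, and their ratio does not depend on scaling. The AARS to AARS2 ratio was 14.5 with sh#7 and 9.32 with sh#2, against 8.28 in control. The NARS to NARS2 ratio was 3.67 with sh#7 and 2.87 with sh#2, against 2.36 in control, and the YARS to YARS2 ratio was 4.67 with sh#7 and 3.56 with sh#2, against 3.27 in control. The MARS to MARS2 ratio was lower in both lines, at 7.33 with sh#7 and 7.63 with sh#2, against 9.41 in control. The cytosolic gene had the larger log2 difference in 7 of 11 pairs in sh#7 and in 8 of 11 in sh#2. The ratio was below 1 in every library for isoleucine and cysteine, with IARS to IARS2 at 0.632 with sh#7 and 0.500 with sh#2, against 0.457 in control.

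**Figure D3:**
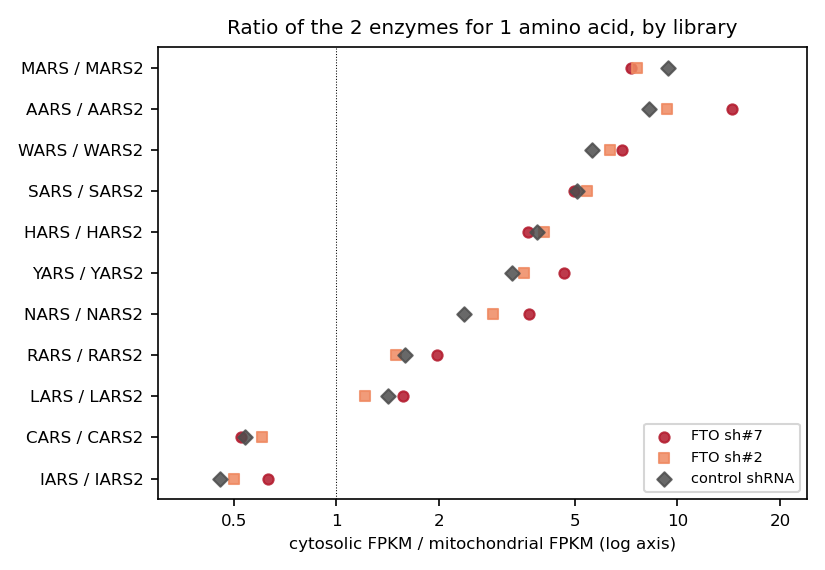
Ratio of the cytosolic to the mitochondrial FPKM for 11 amino acids on a log axis, with 1 point per library (sh#7 circles, sh#2 squares, control diamonds). The AARS to AARS2 ratio is furthest to the right in sh#7, at 14.5, while the MARS to MARS2 ratio is highest in control, at 9.41.

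Compared directly, 9 of 20 cytosolic and 4 of 14 mitochondrial enzymes were above sh#2 in sh#7, where 57.3% of all genes were. QARS was at least 1.5-fold lower, where 4.55% of all genes were, and 0 members were at least 1.5-fold higher, where 5.14% of all genes were. The median difference was -0.04 for cytosolic and -0.13 for mitochondrial enzymes, against 0.05 for all compared genes. Of the 14 mitochondrial enzymes 7 were in the lower quartile of all genes, which holds 25.0%, and 0 were in the upper quartile. Of the 20 cytosolic enzymes 6 were in the lower and 2 in the upper quartile. RARS2 had the lowest mitochondrial value, at 71.9% of sh#2 (68.2 to 75.7), and NARS2 was at 74.5% (70.8 to 78.5). Furthest above sh#2 were AARS, at 132% (129 to 135), and LARS, at 119.6% (115 to 124).

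Class I and class II synthetases, which differ in the fold of the catalytic domain, were present in both compartments. The 18 class I genes had a median difference of 0.22 with sh#7 and 0.26 with sh#2, and the 16 class II genes had 0.02 with sh#7 and 0.20 with sh#2. In sh#2 10 of 18 class I and 7 of 16 class II genes were in the upper quartile of all genes, and in sh#7 5 and 1 were, against 25.0% of all genes. That quartile begins at 0.25 in sh#2 and at 0.37 in sh#7. The fused gene EPRS, for glutamate and proline, was counted in class I only, although PARS2 for proline was counted in class II. EPRS lay in the upper quartile in both lines. AARS, the member with the largest difference in sh#7, belongs to class II.

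Genes that act beside the synthetases were taken from lists. As deposited, 15 of 20 cytosolic synthetases were above control in sh#7, against 67.2% of all genes. Cytosolic elongation factors, which carry the charged tRNA to the ribosome and move it along, were lower in sh#7. These are highly expressed genes, and they were not set beside genes of similar level. All 5 lay in the lower quartile of all genes in sh#7 and 3 of 5 in sh#2, against 25.0% of all genes, with medians of -0.38 and -0.18. EEF1A1, which delivers charged tRNA, was at 1089 FPKM with sh#7 and 1422 FPKM with sh#2, against 1619 FPKM in control. EEF2, which drives translocation, was at 683 FPKM with sh#7 and 822 FPKM with sh#2, against 929 FPKM in control, and EEF1G was at 679 FPKM with sh#7 and 779 FPKM with sh#2, against 881 FPKM in control. The 4 mitochondrial elongation factors had medians of 0.11 with sh#7 and 0.20 with sh#2. TUFM was at 296 FPKM with sh#7 and 361 FPKM with sh#2, against 305 FPKM in control, TSFM at 37.1 FPKM with sh#7 and 43.3 FPKM with sh#2, against 34.1 FPKM in control, and GFM1 at 22.02 FPKM with sh#7 and 18.0 FPKM with sh#2, against 16.1 FPKM in control.

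Of 23 genes of tRNA maturation and export, 22 were compared, and 3 were at least 1.5-fold higher in sh#7 and 1 in sh#2, against 9.61% and 2.67% of all genes, with none that much lower, against 6.18% and 2.72%. The 3 were ELAC2, POP1 and ELAC1, and the gene in sh#2 was POP1. These calls rest on the deposited scaling, as those of AARS and YARS do, and were not recomputed under the other scalings. ELAC1 falls outside the naming rule and was picked after its values were seen, at 2.45 FPKM with sh#7 and 1.34 FPKM with sh#2, against 1.15 FPKM in control. ELAC2, the RNase Z that trims tRNA 3′ ends, was at 26.4 FPKM with sh#7 and 24.3 FPKM with sh#2, against 16.7 FPKM in control. POP1 and RPP38, proteins of RNase P, were at 4.54 and 15.4 FPKM with sh#7 and 4.62 and 14.8 FPKM with sh#2, against 2.58 and 10.2 FPKM in control. Of 13 further synthetase-like and accessory genes, 0 were 1.5-fold higher or lower than control in either line, against those same shares. EEF1E1, also called AIMP3 and a part of the complex, was at 63.3 FPKM with sh#7 and 82.0 FPKM with sh#2, against 60.4 FPKM in control.

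Among 14 compared genes of the amino acid response, 1 was 1.5-fold higher and 1 was 1.5-fold lower in sh#7, and 2 were higher and 0 were lower in sh#2. Of all genes, 9.61% were higher and 6.18% lower in sh#7, and 2.67% were higher and 2.72% lower in sh#2. These counts are on the deposited scaling and were not recomputed under the other scalings. Lower in sh#7 was CEBPB, a C/EBP factor, and higher in sh#2 were SLC7A11 and ASNS, the asparagine synthetase gene; CEBPB and ASNS fall outside the naming rule and were picked after their values were seen. CEBPB was at 33.3 FPKM with sh#7 and 55.4 FPKM with sh#2, against 58.6 FPKM in control, and ASNS at 10.99 FPKM with sh#7 and 15.2 FPKM with sh#2, against 9.61 FPKM in control. The median over this list was 0.19 for sh#7 and 0.26 for sh#2. TRIB3, a pseudokinase induced by ATF4, was at 57.1 FPKM with sh#7 and 56.8 FPKM with sh#2, against 41.5 FPKM in control. The cystine transporter gene SLC7A11 was at 1.28 FPKM with sh#7 and 4.31 FPKM with sh#2, against 1.92 FPKM in control. VLDLR, a lipoprotein receptor and the gene that was higher in sh#7, was at 5.81 FPKM with sh#7 and 2.11 FPKM with sh#2, against 2.38 FPKM in control. ATF4 itself, named after its values were seen, was at 309 FPKM with sh#7 and 365 FPKM with sh#2, against 269.9 FPKM in control.

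Of 21 genes of mTORC1 and its regulators 19 were compared, and 0 were 1.5-fold higher or lower than control in either line, against the same shares of all genes. Their median was 0.27 with sh#7 and 0.14 with sh#2. RRAGC, a Rag GTPase that brings mTORC1 to the lysosome, was at 13.2 FPKM with sh#7 and 11.8 FPKM with sh#2, against 8.58 FPKM in control. LAMTOR2, a part of its lysosomal anchor, was at 27.2 FPKM with sh#7 and 26.7 FPKM with sh#2, against 19.7 FPKM in control. SESN1, a sestrin that restrains mTORC1, was at 13.5 FPKM with sh#7 and 16.4 FPKM with sh#2, against 10.7 FPKM in control. RNA levels do not measure the activity of mTORC1.

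**Figure D4:**
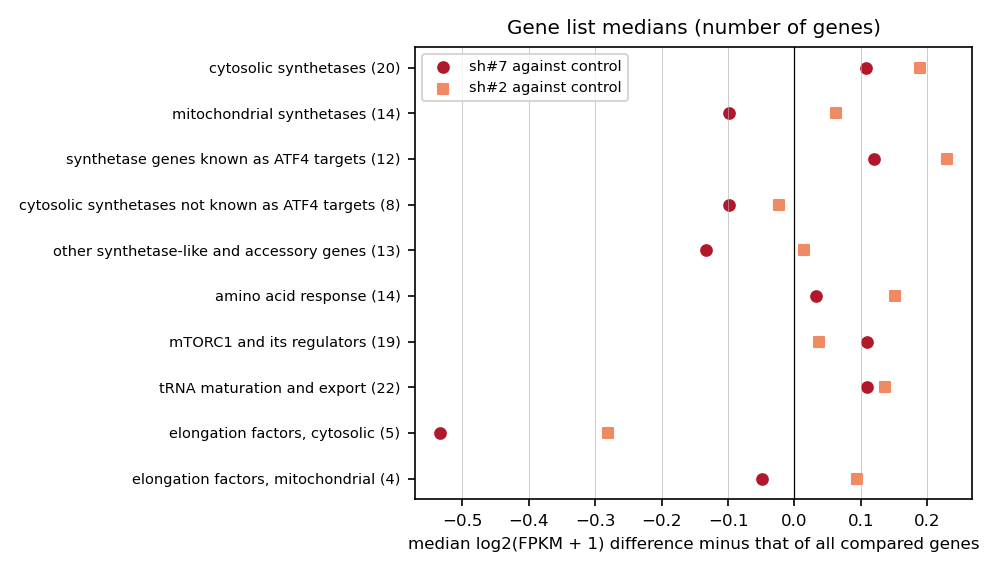
Median difference in log2(FPKM + 1) of each gene list minus the median of all compared genes, for sh#7 (circles) and sh#2 (squares) against control, with the number of compared genes in brackets. Cytosolic elongation factors lie furthest to the left, at -0.53 with sh#7 and -0.28 with sh#2, and the synthetase genes known as ATF4 targets lie at 0.12 with sh#7 and 0.23 with sh#2.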

How the data were processed

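The authors deposited a table of FPKM with 1 row per gene symbol and 1 column per library. The tools STAR 2.4.0j, Cufflinks 2.2.1 and HTSeq and the build hg19 are named, per the submitters' processing notes, with no order or role. A count model was not applied to FPKM. Differences of log2(FPKM + 1) were computed for genes whose mean reached 1 FPKM (Python 3.11.15, pandas 2.3.3, scipy 1.17.1), after testing on simulated data. The simulation used larger changes, a known depth and a fixed length. It does not bear on calls at 1.5-fold or on intervals from estimated fragments. With 1 library per group, size alone is described, beside the same measure over all compared genes.

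Depth was estimated from the levels that mark single fragments in genes with 1 GENCODE 29 transcript longer than 800 nt. Only estimates between 35 and 50 were kept, on a scale where the depths of sh#7, sh#2 and control are 41.8, 43.2 and 41.9. A depth outside that range could not have been found, so these depths are approximate and were not checked in another way. The 95% counting intervals, by the exact binomial method, rest on fragments estimated from these depths and GENCODE 29 principal transcript lengths, which may not be those the authors used, so they are approximate; they leave out errors of isoform and multi-read assignment.

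All 36 members were named, with FTO and, from each further list, the 3 genes with the largest mean absolute difference. Members and lists were chosen with earlier results of these data known. The promoter motif was chosen with the data in view and searched in RefSeq windows of GRCh38.p14, while the FPKM rest on hg19.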

Additional observations from a re-analysis of the deposited data

Results flagged for a closer look

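In GARS, IARS2 and RARS2 the 2 FTO lines lay on opposite sides of the control as deposited, each beyond counting error. The difference between the lines was not tested, and both were set against the same control library. GARS differed from control by -0.078 with sh#7 and 0.38 with sh#2 on the log2(FPKM + 1) scale. IARS2 differed by -0.18 with sh#7 and 0.15 with sh#2, and RARS2 by -0.31 with sh#7 and 0.15 with sh#2. The median of all compared genes was 0.16 with sh#7 and 0.10 with sh#2, and with it subtracted IARS2 and RARS2 were 0.05 and 0.05 above control in sh#2. With median-of-ratios scaling, the sh#2 level was 102% of control (99.7 to 105) for IARS2 and 103% (97.8 to 108) for RARS2, both within counting error, and 120.5% (116 to 125) for GARS. Under that scaling further members lay on opposite sides of control. Among them were SARS, at -0.18 with sh#7 and 0.17 with sh#2, and LARS, at 0.12 and -0.08.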

How the results depend on the processing

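No paired analysis was possible because every line gave a single library, so that no replicate could be left out. A filter at 5 FPKM or none left all 18 summary values recomputed under each within counting error, or within 1.5 times for counts of members. This was largely fixed in advance, since all 36 members pass the main filter and 5 FPKM removes PARS2 alone. For a list median, counting error here means that of a typical member, not of the median. At 5 FPKM the mitochondrial median in sh#7 was 0.092, against 0.058. A pseudocount of 0.1 gave 4 members at least 1.5-fold higher in sh#7 and 2 in sh#2. Median-of-ratios and upper-quartile scaling each gave 0 in sh#7 and 0 in sh#2. The cytosolic median became 0.091 and 0.14 in sh#7 and 0.18 and 0.20 in sh#2 under these scalings, and 0.18 in sh#7 as a mean of members. For sh#7 against sh#2 it became -0.092 with median-of-ratios scaling. The mitochondrial median turned to -0.10 and -0.057 in sh#7 under the scalings and to 0.050 in sh#2 under median-of-ratios, since scaling moves all genes together. Over means, the cytosolic minus mitochondrial difference was 0.15 in sh#7, 0.076 in sh#2 and 0.070 for sh#7 against sh#2. As a median, it was 0.33 for sh#7 against sh#2 over the 11 same-name pairs, a setting chosen after seeing the data; the cause was not tested. Summed cytosolic levels with median-of-ratios scaling were 1212 FPKM in sh#7 and 1337 FPKM in sh#2, against 1271 FPKM in control; with upper-quartile scaling 1233, 1339 and 1249 FPKM; and without GARS and KARS 1120, 1184 and 1026 FPKM. Summed mitochondrial levels were 252, 306 and 295 FPKM with median-of-ratios scaling and 256, 306 and 289 FPKM with upper-quartile scaling, in sh#7, sh#2 and control. The sh#7 sums are thus above control as deposited for cytosolic enzymes and below it under either scaling. Of 537 values of single members, 398 stayed within counting error and 139 moved beyond it, all of them under a scaling. The 398 include the values under the 2 filter settings, which cannot change the difference of a single gene. With median-of-ratios scaling 81 moved and 27 stayed, and with upper-quartile scaling 58 moved and 50 stayed. With the pseudocount of 0.1 all 108 stayed. Counting error is widest for PARS2, FARS2, WARS2 and MARS2.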

Other observations

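The wider form TGATGNAA of the composite element, which contains TGATGCAA, stood in the promoter windows of 7 of 16 cytosolic and 1 of 13 mitochondrial genes, where 4.46% of all genes with a window hold it. The E-box CACGTG, a sequence known to be bound by MYC and related factors, stood in 1 of 16 cytosolic, 3 of 13 mitochondrial and 1 of 2 scaffold genes, against 8.77% of all genes. These searches were made after the data were seen.

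Each list was also set beside the genes between its lowest and highest mean level, in place of all compared genes. These ranges are wide, 16.3 to 132 FPKM for cytosolic and 3.12 to 75.3 FPKM for mitochondrial enzymes. They hold many of the 11069 compared genes and levels were not matched, so similar values were likely in advance. The cytosolic median was 0.13 above that of the 3932 genes within its range of mean levels in sh#7 and 0.19 above in sh#2. The mitochondrial median was -0.12 in sh#7 and 0.05 in sh#2 relative to the 8033 genes within its own range.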
